A study of Mus musculus with 2 samples.

Results

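The genes described here were the AP-1 subunits Fos, Fosb, Fosl1, Fosl2, Jun, Junb and Jund, together with Atf3, Egr1 and Myc, in mouse prostaspheres that expressed or had lost Sox9. They were chosen by name: every spot carrying one of these 10 gene names that was not a control spot entered, whatever its value. That gave 14 probes and 41 spots, of 27827 gene names, 41174 probes and 43379 non-control spots on each array. All 14 probes were well above background in all 4 RNAs, none was saturated, and all passed the filter on dim probes, so every member was tested.

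Prostaspheres are balls of epithelial cells grown from single cells in Matrigel. By the labels they came from urogenital sinus epithelium of embryos at 16 days post conception on a C57/Bl6J background, although the methods of the study start the sphere assay from adult prostate. All cultures received dihydrotestosterone, an androgen. After 6 days they received tamoxifen (TAM, 5 micromolar), which activates the Cre recombinase fused to an estrogen receptor domain (ERCre), or vehicle, for another 6 days. ERCre is driven from Rosa26 and acts in most cell types, so the deletion was not restricted to 1 cell type. The first array, or genotype comparison, set wild type prostaspheres given TAM (Cy5, red) against prostaspheres labelled Sox9 null given TAM (Cy3, green). On the second, or treatment comparison, Sox9 null prostaspheres given vehicle were in Cy5 and Sox9 null prostaspheres given TAM were in Cy3. The label Sox9 null was given with or without TAM and was read here as the ERCre+/+Sox9flox/flox line, in which vehicle leaves the floxed allele in place. The growth notes also list ERCre+/+Sox9flox/+ animals and do not tie an animal to an array, and the number of embryos behind each RNA was not given.

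AP-1 is a dimer of basic leucine zipper proteins. A Jun protein pairs with another Jun or with a Fos protein, and Atf3 can join the same dimers, to bind a short palindromic site. Fos, Egr1 and Atf3 are immediate-early genes, whose transcripts rise within minutes of growth factor or stress signals passed on by the MAP kinases. Myc binds E-boxes as a dimer with Max and raises genes of ribosome production and metabolism. In epithelium these factors are known for their part in wound responses and in the switch between proliferation and differentiation.

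The promoters of Atf3, Jun, Fos and Jund are shown because Atf3 and Jund gave the lowest log2 ratios among the members and because Jun and Fos are the founding AP-1 pair. Each sequence is the 250 bases before the annotated start in RefSeq (GRCm38.p6), 5′ to 3′ on the gene's own strand. Capitals mark the searched motifs TGACATCA, TGACGT and TGATGCAA, or their reverse complements.
Atf3, chr1:191183334-191183583, minus strand: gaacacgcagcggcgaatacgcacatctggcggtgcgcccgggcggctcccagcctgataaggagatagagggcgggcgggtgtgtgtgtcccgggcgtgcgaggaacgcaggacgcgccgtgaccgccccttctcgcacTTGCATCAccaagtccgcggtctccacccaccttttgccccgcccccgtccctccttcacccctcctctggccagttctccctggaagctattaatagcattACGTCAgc
Jun, chr4:95052223-95052472, minus strand: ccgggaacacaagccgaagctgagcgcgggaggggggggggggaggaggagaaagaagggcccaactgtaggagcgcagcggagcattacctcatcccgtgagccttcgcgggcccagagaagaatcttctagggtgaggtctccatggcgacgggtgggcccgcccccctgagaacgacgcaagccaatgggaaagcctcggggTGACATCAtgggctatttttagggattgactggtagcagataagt
Fos, chr12:85473640-85473889, plus strand: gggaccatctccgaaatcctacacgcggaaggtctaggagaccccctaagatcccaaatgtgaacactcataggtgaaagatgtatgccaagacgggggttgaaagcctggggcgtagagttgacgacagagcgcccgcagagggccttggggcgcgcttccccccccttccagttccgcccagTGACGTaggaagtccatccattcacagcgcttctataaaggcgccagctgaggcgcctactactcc
Jund, chr8:70697489-70697738, plus strand: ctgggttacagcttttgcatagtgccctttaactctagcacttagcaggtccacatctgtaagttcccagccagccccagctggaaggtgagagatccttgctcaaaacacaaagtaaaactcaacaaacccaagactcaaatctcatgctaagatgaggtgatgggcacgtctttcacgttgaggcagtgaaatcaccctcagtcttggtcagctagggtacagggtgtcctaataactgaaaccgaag

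Upstream sequence was used for 7 of the 10 genes, leaving Fosl1, Egr1 and Myc without one. Motifs were searched on both strands in these 7 windows and in all 32851 promoters of the same length. TGACGT, the core of the cAMP response element that Atf and Creb proteins bind, lay 3 bases before the start of Atf3 (on the minus strand of the gene) and 61 bases before that of Fos, and 6.47% of all promoters held it. TGATGCAA, a composite Atf and C/EBP motif, lay 103 bases before the start of Atf3 and occurred in 0.791% of promoters. TGACATCA, the AP-1 variant known from the Jun promoter, lay 38 bases before the start of Jun and occurred in 2.93%. The Egr1 motif GCGGGGGCG lay in the windows of Fosl2 (71 bases before the start) and Fosb (42 bases before), and in 2.57% of promoters. None of the 7 windows held TGACTCA (4.46% of promoters), the E-box CACGTG (6.02%) or the Sox motif ACAATG (10.7%). These matches describe letters in a short window, and binding was not measured.

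2 probes that read coding sequence are shown, since these lie upstream of the other probes of Fosl2 and Myc. Both are printed as designed on the array, plus strand, with mm9 coordinates from the array files.
Fosl2, chr5:32455088-32455147: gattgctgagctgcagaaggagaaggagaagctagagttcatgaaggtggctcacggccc
Myc, chr15:61820925-61820984: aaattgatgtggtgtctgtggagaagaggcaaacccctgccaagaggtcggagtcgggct

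Each value below is a log2 ratio of Sox9-expressing (Cy5) over Sox9-deleted (Cy3) RNA on 1 array, so a negative value means more signal in the Sox9-deleted RNA. Sox9 itself was read by 3 probes, which disagreed: the brightest gave 2.69 (genotype comparison) and 2.37 (treatment comparison), the second 1.18 and 1.27, and the third -0.997 and -1.22. The first 2 have the direction of the titles, genotype and treatment labels and the third the opposite one. Which of these probes lie in the deleted part of the gene was not established, and a probe outside it cannot check the labels. The arrays answer different questions, each was run once and dyes were not swapped, so a dye effect and the loss of Sox9 cannot be told apart. On the treatment array TAM exposure differed along with Sox9, and on the genotype array the mouse line did. Effects of TAM or line cannot be told apart from the loss of Sox9 either. The mean over both arrays is given with its SD (n = 2 arrays). Adjusted p-values come from limma, with Benjamini-Hochberg adjustment over all 22731 tested probes, and rest on 1 residual degree of freedom. Nothing in the sources says that the cultures were independent, so this spread may be technical. The intervals printed with some means also come from limma, whose standard error draws on a spread shared across probes. They were not built from the SD beside them, and the spread of the gene alone would give a far wider interval. They also treat the arrays as repeats of the same comparison. They therefore do not give the precision of either comparison, which was measured once. Brightness in each RNA is given in normalized intensity units and is compared within a probe. The exceptions are the summed brightness of cell type markers and the setting of Fosb beside an undetected gene, which run over different probes.

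Atf3, Fosl1 and Jund gave the lowest ratios of the group and Egr1 and Fosl2 the highest. Jund was lower in the Sox9-expressing RNA by a similar amount on both arrays, whereas Atf3 and Fosl1 were lower mainly in the treatment comparison and Egr1 was higher mainly in the genotype comparison. On the adjusted scale 0 of the 10 genes passed 0.05 in limma, against 0.0132% of the 15122 tested genes (2 genes). At an unadjusted p under 0.05, limma gave 8 of 10 (Fosb, Fosl1, Fosl2, Jun, Junb, Jund, Atf3 and Myc) where 19.6% of all tested genes passed, and the methods' t-test gave 0 of 10 at either threshold. That test uses the spread of each gene alone, while limma draws on a spread shared across probes.

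**Figure D1:**
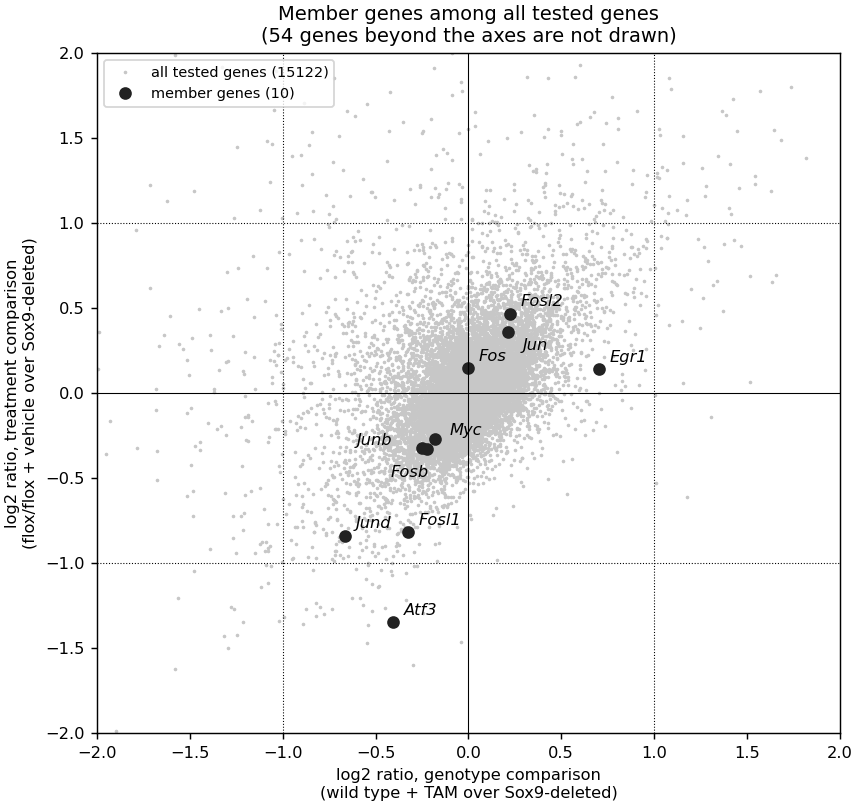
Log2 ratio of Sox9-expressing over Sox9-deleted RNA in the genotype comparison (horizontal axis) against the treatment comparison (vertical axis), 1 point per gene. Grey points are the 15122 tested genes (54 lie beyond the axes and are not drawn) and labelled points are the 10 members: Atf3, Fosl1 and Jund sit lowest, Egr1 lies far to the right, and Fos is the only member whose values have opposite signs.

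6 members were lower in the Sox9-expressing RNA on both arrays (Fosb, Fosl1, Junb, Jund, Atf3 and Myc), where 33.8% of all tested genes were, and Junb and Myc turned positive when the arrays were centred on their median in place of loess. That centring raised the median of all tested genes and shifted single genes by unequal amounts. Relative to the median of each array, 7 members were lower and 3 higher on both arrays, where 34.0% of tested genes were in each direction. The 7 included Fos, whose mean was 0.00 relative to all tested genes. With loess 3 members were higher on both (Fosl2, Jun and Egr1), where 33.9% of tested genes were, and Fos had opposite signs, as 32.4% did. No member was at least 2-fold different in the same direction on both arrays (0.536% of tested genes were, 0.159% lower and 0.377% higher). Atf3 alone passed 2-fold in the treatment comparison, where 2.11% of genes did, and no member did in the genotype comparison (1.67%). The median of the members' mean log2 ratios was -0.25, against 0.00 over all tested genes, and with median centring it was -0.07 relative to all tested genes. With loess the median size regardless of sign was 0.317 against 0.122. Their typical SD between arrays, 0.113, was close to the 0.0967 of all tested genes. 9 of 10 members had the larger ratio, regardless of sign, in the treatment comparison, Egr1 being the exception, and 59.1% of tested genes did.

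Among the Fos proteins, which cannot pair with each other and need a Jun partner, the members went different ways. Fos, the founding immediate-early gene, was dim and nearly even: its brightness was 167.1 in wild type and 167.3 in Sox9-deleted RNA on the first array, and 184.0 in vehicle against 166.1 in Sox9-deleted RNA on the second. On the genotype array it gave -0.00, where 10 spots ran from -0.07 to 0.07. On the treatment array it gave 0.15, where 9 spots ran from 0.01 to 0.28, the remaining spot being marked an outlier by the scanner software. The spots thus overlapped 0 on the first array and lay above it on the second. The mean was 0.07 ± 0.11 (limma adjusted p = 0.677).

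Fosb, a second immediate-early Fos protein, read 127.9 in wild type against 149.2 in Sox9-deleted RNA and 103.0 in vehicle against 129.6 in Sox9-deleted RNA. Both Sox9-deleted values were above both Sox9-expressing ones, by a small margin between 129.6 and 127.9. Though marked well above background, the probe was dim: Foxa1, which was well above background in no RNA, read from 94.7 to 101.9. The vehicle value of Fosb was thus near that of an undetected gene. The log2 ratios were -0.22 and -0.33 (mean -0.28 ± 0.08, limma adjusted p = 0.225). The mean of Fosb went to -0.46 with a smaller offset in the background correction and to -0.90 on the software's processed signals.

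Fosl1 encodes Fra-1, a Fos protein that lacks the transactivation domain of Fos and accumulates under sustained Erk signalling. Its brightness was 232.3 in wild type and 291.4 in Sox9-deleted RNA of the genotype comparison, then 159.2 in vehicle and 280.3 in Sox9-deleted RNA of the treatment comparison. The Sox9-deleted cultures lay close together and above both Sox9-expressing cultures, of which the vehicle culture was the lower. The log2 ratios were -0.33 and -0.82 (mean -0.57 ± 0.35, 95% interval from -0.98 to -0.16, limma adjusted p = 0.204). In the treatment comparison 0.704% of tested probes had a lower ratio, in the genotype comparison 7.47%. On the software's processed signals the mean was -0.96.

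Fosl2, which encodes the related Fra-2, had the opposite sign at both of its probes. The brighter probe read 441.7 in wild type against 378.9 in Sox9-deleted RNA, and 535.3 in vehicle against 386.9. The coding probe printed above read 399.0 against 293.4, and 411.5 against 253.4. Both probes were brighter in each Sox9-expressing RNA than in either Sox9-deleted RNA. The log2 ratios were 0.22 and 0.47 at the brighter probe (mean 0.34 ± 0.17, limma adjusted p = 0.224) and 0.44 and 0.70 at the coding probe (mean 0.57 ± 0.18, limma adjusted p = 0.148). The probes gave the same direction on both arrays and differed in size.

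The Jun proteins can pair with each other as well as with Fos proteins. Jun, the strongest activator of the family, read 1488 in wild type against 1281 in Sox9-deleted RNA, and 1643 in vehicle against 1281. It gave log2 ratios of 0.22 on the genotype array, with 10 spots from 0.14 to 0.25, and 0.36 on the treatment array, with 10 spots from 0.32 to 0.40. All 20 spots were above 0 and the spots of the arrays did not overlap. The mean was 0.29 ± 0.10 (95% interval from 0.06 to 0.52, limma adjusted p = 0.227).

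Junb, a Jun protein known to restrain Jun in proliferation, was lower in the Sox9-expressing RNA. The brighter of its probes read 9675 in wild type against 11526 in Sox9-deleted RNA, and 9593 in vehicle against 12014. Its log2 ratios were -0.25 and -0.32 (mean -0.29 ± 0.05, limma adjusted p = 0.208). The other probe, which overlaps it in the 3′ part of the gene, gave -0.23 and -0.30 (mean -0.26 ± 0.05, limma adjusted p = 0.227). The overlap means that these probes are not separate evidence. With median centring the mean of Junb was 0.16, which was -0.05 relative to the median of all tested genes under that setting.

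Jund, the Jun protein that is present in resting cells and often opposes growth, had the lowest limma adjusted p of the group. It read 7164 in wild type against 11369 in Sox9-deleted RNA, and 6635 in vehicle against 11853. Both Sox9-expressing cultures were well below both Sox9-deleted cultures. The log2 ratios were -0.67 and -0.84 (mean -0.75 ± 0.12, 95% interval from -0.99 to -0.51), a 1.68-fold higher signal in Sox9-deleted RNA, with a limma adjusted p of 0.105. A lower ratio was found for 2.09% of tested probes on the genotype array and 0.647% on the treatment array. The mean went to -0.32 with median centring, or -0.53 relative to all tested genes. Jund was read by 1 probe.

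**Figure D2:**
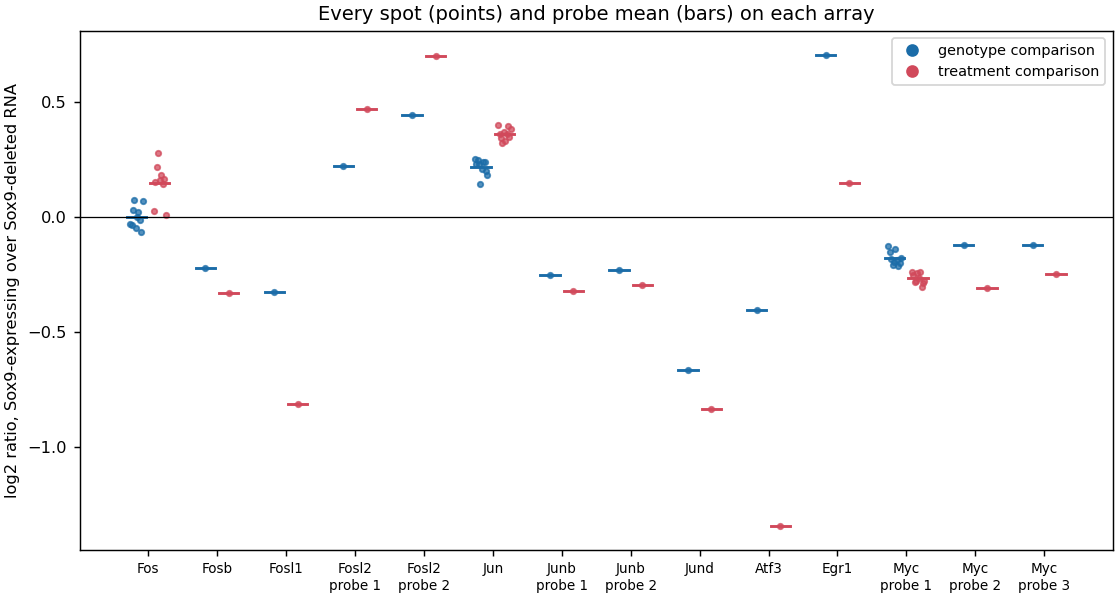
Log2 ratio of every spot of the 14 probes, by probe and array, so that the spread of replicate spots can be compared with the distance between arrays. Probes of Fos, Jun and Myc with 10 spots per array (9 for Fos on the treatment array) have spot SDs from 0.0224 to 0.0851. Both probes of Fosl2 and Junb and all 3 of Myc keep 1 sign on both arrays.

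Atf3 is a stress-induced partner of the Jun proteins and can act as a repressor. Its brightness was 730.8 in wild type against 968.5 in Sox9-deleted RNA of the genotype comparison, and 386.5 in vehicle against 982.1 in Sox9-deleted RNA of the treatment comparison. The Sox9-deleted cultures were nearly equal, while the vehicle culture stood far below the wild type culture given TAM. The log2 ratios were -0.41 and -1.35, that is 1.33-fold and 2.54-fold more signal in Sox9-deleted RNA, with a mean of -0.88 ± 0.66 (95% interval from -1.59 to -0.16, limma adjusted p = 0.230). In the treatment comparison 0.0968% of tested probes had a lower ratio, and in the genotype comparison 5.32%. The size therefore depended on the array, and the difference between the arrays was not tested, with 1 array each.

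The genes whose centred log2 brightness over the 4 RNAs lay nearest to that of Atf3, among 15122 genes, were Tslp, Crct1 and Cxcl16. Tslp, an epithelial cytokine, had log2 ratios of -0.24 and -1.29 and lay 0.123 log2 units from Atf3. Crct1, a gene named for its cysteine-rich C-terminal product, gave -0.55 and -1.47 (distance 0.134). Cxcl16, a chemokine with a membrane-bound form, gave -0.34 and -1.22 (distance 0.144). All 3 share the low vehicle culture, which follows from their choice by nearness over these same 4 RNAs and is not separate evidence.

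Egr1, a zinc finger factor and a common readout of Erk1/2 signalling, ran the other way. It read 1416 in wild type against 869.6 in Sox9-deleted RNA, and 951.4 in vehicle against 860.8. Here the wild type culture given TAM stood above the other 3, which lay close together. The log2 ratios were 0.70 and 0.14 (mean 0.42 ± 0.40, 95% interval from -0.03 to 0.88, limma adjusted p = 0.302). Of the tested probes, 98.9% had a lower ratio on the genotype array and 72.2% on the treatment array.

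Myc was read by 3 probes and was lower in Sox9-expressing RNA at each of them. The brightest probe read 2653 in wild type against 3006 in Sox9-deleted RNA, and 2359 in vehicle against 2842. Its log2 ratios were -0.18, with 10 spots from -0.21 to -0.13, and -0.27, with 10 spots from -0.31 to -0.24. The mean was -0.22 ± 0.06 (limma adjusted p = 0.274). The second probe gave -0.12 and -0.31 (limma adjusted p = 0.315) and the coding probe printed above gave -0.12 and -0.25 (limma adjusted p = 0.335). The small difference was thus alike at the 3 probes. These all lie within chr15:61820925-61821576 (mm9), and no probe read the transcript upstream of that stretch. With median centring the mean of Myc was 0.12, or -0.09 relative to all tested genes.

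**Figure D3:**
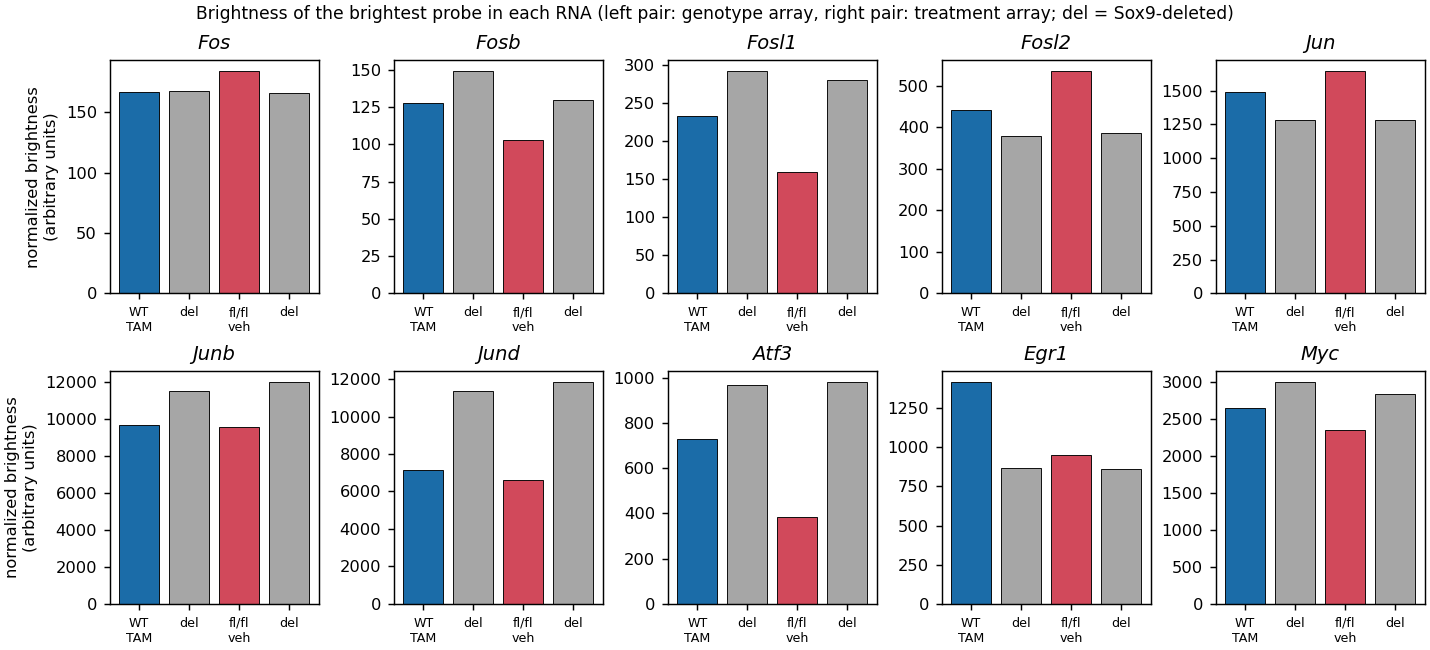
Normalized brightness (intensity units, linear axis from 0) of each member's brightest probe in the 4 RNAs, 1 bar per RNA and 1 panel per gene, each panel with its own axis. In the panel of Atf3 the vehicle culture is low at 386.5, in that of Egr1 the wild type culture is high at 1416, and in that of Jund both Sox9-expressing cultures are below both Sox9-deleted ones.

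The Sox9-deleted RNAs of the arrays carry the same labels, so their difference holds no labelled change of genotype or treatment. Since the sources do not say that they came from independent cultures, the difference may be technical only. It ran from -0.20 to 0.06 log2 units over the members (treatment array minus genotype array), with a median size of 0.0433 against 0.0695 over all tested genes. Fosb, at -0.20, was the only member beyond the SD of 0.116 that all tested genes gave. Between the Sox9-expressing cultures, which differ in both genotype and treatment, the median size was 0.223 over the members and 0.136 over all tested genes. There Atf3 (-0.92), Egr1 (-0.57) and Fosl1 (-0.55; vehicle minus wild type) were beyond the SD of 0.336 of all tested genes. The uneven sizes of Atf3, Egr1 and Fosl1 between arrays thus lay in the Sox9-expressing cultures rather than in the Sox9-deleted ones.

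Markers of other cell types moved between these cultures as well. All 9 basal epithelial markers were well above background in every RNA and gave positive ratios throughout (medians 1.04 and 0.57), and their summed brightness ran from 324392 to 375246 in Sox9-expressing and from 121037 to 122804 in Sox9-deleted RNA. That sum is mostly Krt14, Krt5 and Krt15 (134302, 103258 and 99354 in wild type). On the treatment array Itgb4 gave only 0.06 and Lama3 0.02. Of 13 fibroblast and smooth muscle markers 11 had opposite signs on the arrays (medians -0.66 and 0.60), as had all 7 tested skeletal muscle markers (medians -0.73 and 1.41). The fibroblast and smooth muscle sums were 38672 in wild type and 98205 in vehicle, with 59193 and 65018 in the Sox9-deleted RNAs. Of 10 luminal and general epithelial markers 8 were tested, 4 of them lower and 3 higher with Sox9 on each array (medians -0.13 and -0.26), among them Cldn4 at -0.84 and -1.04 and Krt18 at -0.28 and -1.01, while Foxa1 was well above background in no RNA. Of 10 leukocyte markers 5 were tested and 4 were lower on each array (medians -0.20 and -0.13). Cd68 gave -0.69 and -0.77 and Lyz2 -0.90 and -0.15. The other tested ones were dim: Tyrobp gave -0.20 and -0.13, Fcer1g was nearly even at -0.00 and -0.02, and Csf1r gave 0.03 and -0.12. The defining leukocyte markers Ptprc and Cd3e were well above background in no RNA. Of 7 endothelial markers 4 were tested (medians -0.12 and -0.12), with Emcn at -0.37 and 0.34, and Pecam1, Tek and Tie1 were well above background in no RNA. The part of these shifts in the values of the members was not tested, and in such bulk RNA fewer cells of a type and less RNA per cell cannot be told apart.

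Of the 8 pathway lists, the AP-1 target genes had the median furthest from 0. Of 16 listed genes 15 were on the array and tested, and all 15 were lower with Sox9 on each array (33.8% of all tested genes were), whereas with median centring 8 were, where 11.2% of all tested genes were. Relative to the median of all tested genes under that centring, 11 were lower and 0 higher on both arrays (34.0% of tested genes each way). The median log2 ratio was -0.59 against 0.00 over all tested genes, and with median centring it was -0.20, or -0.41 relative to all tested genes. Limma called 0 of them after adjustment and 12 at an unadjusted p under 0.05, where 9.08% of tested genes were called in this direction. Mmp13, a collagenase, gave -1.68 and -0.51 (mean -1.09 ± 0.82, limma adjusted p = 0.225). Areg, the EGF receptor ligand amphiregulin, gave -0.95 and -0.97 (mean -0.96, limma adjusted p = 0.0883). The smallest differences in the list were those of Spp1, a secreted phosphoprotein, at -0.30 and -0.03, and of the protease gene Plau at -0.10 and -0.15. The list holds genes that many other factors also regulate. It was drawn up from general knowledge with earlier results of these data known, so its counts are not independent evidence.

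The other immediate-early genes and outputs of Erk1/2 signalling were mixed. Of 34 listed genes 32 were on the array and 29 were tested. 16 were lower with Sox9 on each array, 5 were higher on each and 8 had opposite signs, where 33.8%, 33.9% and 32.4% of all tested genes were. The median was -0.16, and 0.11 with median centring, which was -0.10 relative to all tested genes, with 14 genes lower and 7 higher on that scale. Limma called 0 after adjustment, while 13 passed an unadjusted p under 0.05 as lower and 5 as higher, where 9.08% and 10.5% of tested genes did. The lowest were Dusp4, a MAP kinase phosphatase, at -0.68 and -0.97 (limma adjusted p = 0.114), and Plk2, a polo-like kinase, at -0.59 and -0.96 (limma adjusted p = 0.136). The highest were Klf10, a TGF-beta-induced zinc finger factor, at 0.56 and 0.85 (limma adjusted p = 0.131), and Spry2, a feedback inhibitor of receptor tyrosine kinases, at 0.44 and 0.43 (limma adjusted p = 0.144).

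Among 11 other basic leucine zipper factors, which can pair with the members or compete with them for sites, 6 gave negative and 4 positive ratios on each array (33.8% and 33.9% of all tested genes did), with a median of -0.08, or 0.10 with median centring (-0.11 relative to all tested genes). Maff, a small Maf protein without a transactivation domain, gave -0.89 and -0.75 (mean -0.82 ± 0.10, limma adjusted p = 0.0925), and Mafk, of the same kind, -0.32 and -0.22. Jdp2, a repressor that binds AP-1 sites, gave 0.19 and 0.52, and Maf 0.14 and 0.60. None passed limma's adjusted threshold, and 3 of 11 passed an unadjusted p under 0.05, where 19.6% of tested genes did.

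The genes around Myc lay on both sides of 0, in shares near those of all tested genes (33.8% lower and 33.9% higher throughout). Of 11 partners and antagonists 4 gave negative and 5 positive ratios throughout, and the median was 0.02. The Max partners that oppose Myc were split: Mxd1 gave -1.08 and -0.29, whereas Mxd4 gave 0.42 and 0.71 and Mxd3 0.15 and 1.01. Mlx, a Max-like partner, gave -0.23 and -0.38. Of 20 Myc target genes 7 gave negative and 5 positive ratios throughout and 8 had opposite signs (median -0.03). Odc1, the first enzyme of polyamine synthesis, gave -0.12 and -0.61, and Nol5a, a nucleolar protein, -0.12 and -0.53. Ldha, lactate dehydrogenase, gave 0.39 and 0.67, and Cdk4, a cell cycle kinase, 0.27 and 0.13. Limma called 0 genes of either list after adjustment, and 3 of 11 partners and antagonists and 2 of 20 target genes at an unadjusted p under 0.05, where 19.6% of tested genes passed.

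**Figure D4:**
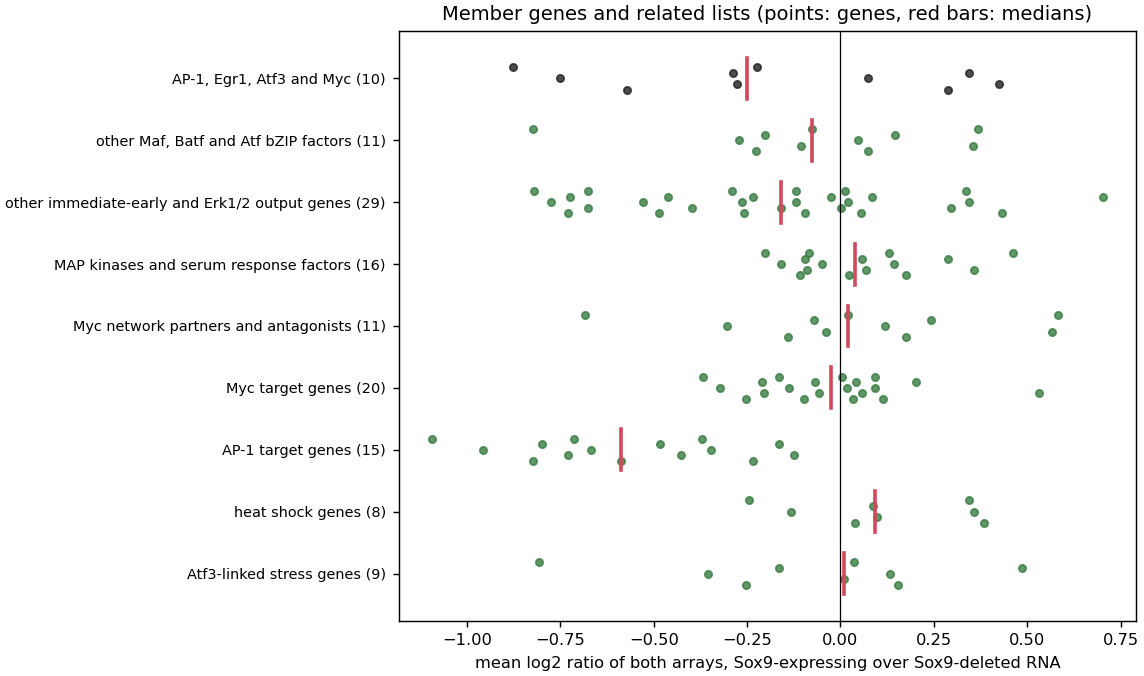
Mean log2 ratio over both arrays (horizontal axis) for each tested gene of the members and of 8 pathway lists, 1 point per gene, with a red bar at each list's median. The AP-1 target genes lie below 0 with a median of -0.59, the members lie on both sides with a median of -0.25, and the Myc lists are centred near 0. The positions hold for loess normalization: with median centring the median of all tested genes was 0.21, and single genes moved by unequal amounts. The lists were chosen with earlier results of these data known.

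Stress genes linked to Atf3, which is induced by the unfolded protein and amino acid responses, were counted at 9 tested genes. Of these 3 gave negative and 3 positive ratios throughout (median 0.01), shares near the 33.8% and 33.9% of all tested genes. Ddit3, which encodes Chop, gave -0.48 and -1.13 (mean -0.81 ± 0.46, limma adjusted p = 0.187) and Trib3, a pseudokinase of the same response, 0.01 and -0.72. Ddit4, an inhibitor of the mTOR pathway, gave 0.66 and 0.32, and Herpud1, of endoplasmic reticulum protein degradation, 0.02 and 0.28. Ddit3 thus had the larger difference in the treatment comparison, as Atf3 did.

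Most values depended on the array normalization in size rather than in sign. Median centring moved the median of all tested genes to 0.02 on the genotype array and 0.42 on the treatment array, and to 0.21 for their mean. Relative to that, the means were -0.81 for Atf3, -0.60 for Fosl1, -0.53 for Jund, -0.47 for Fosb, 0.39 for both Fosl2 and Jun, -0.09 for Myc, -0.05 for Junb, 0.51 for Egr1 and 0.00 for Fos. Jund, Atf3, Fosl1, Fosb, Myc and Junb stayed below and Egr1, Jun and Fosl2 above the median of all tested genes under both normalizations. The shift was not alike for each gene: the mean of Fosb went from -0.28 to -0.26 and that of Junb from -0.29 to 0.16. Values relative to the median of all tested genes therefore do not remove the shift of a single gene.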

How the data were processed

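Total RNA of each culture was amplified, labelled and hybridized to 2 Agilent whole mouse arrays, each with 45018 spots of which 1639 were controls. The scanner files deposited by the authors hold the mean spot intensity, the local background intensity and the processed signal intensity of each dye, with a log10 ratio of red over green, made with Feature Extraction 10.5.1.1 on mm9 probe coordinates per the file headers. The value table deposited by the authors holds a log2-like ratio per spot whose steps were not given in the sources used here. Set against the scanner log10 ratio over bright spots, it had slopes of 3.12 and 3.14 (r = 0.983 and 0.987), so its direction was the same and its scale and centring were close to log2. It was used as an alternative. The processing notes name limma.

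Intensities were background-corrected with normexp (offset 50) in limma 3.58.1 (R 4.3.3), control spots were removed, ratios were normalized by loess within each array, and spots marked as outliers (126 and 130 of each array, 1 of them a Fos spot) were left out. Spots of a probe were averaged. The scanner software's marks for well above background defined the filter: a probe was tested where it was so marked on both arrays in at least 1 dye. Between 53.9% and 56.2% of probes passed that mark, by dye and array, and 22731 probes for 15122 genes were tested. The number of arrays, 2, limits the precision. For each gene the brightest probe was used. Brightness per RNA was taken after loess and Aquantile normalization. The test was limma's lmFit and eBayes on the mean of both arrays, with Benjamini-Hochberg adjustment over all tested probes (prior degrees of freedom 2.8). It was tested on simulated data. Groups were taken from titles, genotype and treatment labels. The source names, which call the red RNA SOX9 and the green RNA Ctrl, were not used. No column of other samples was present.

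Named genes were all 10 members, Sox9, the 2 lowest and 2 highest genes of each pathway list by mean log2 ratio and any gene at least 2-fold on both arrays, and the 3 genes nearest to a member that passed 2-fold. The members, lists and tests were chosen with earlier results of these data known. Alternatives were the offset, no background correction, processed signals, the authors' table, median centring, scaling between arrays, both filters, the mean over probes, the methods' t-test and leaving out each array. Both arrays were on 1 slide and in 1 scan, so no batch term was fitted. Sequences were taken from RefSeq and from the array files. For Egr1 no position or sequence is given.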

Additional observations from a re-analysis of the deposited data

Results flagged for a closer look

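3 immediate-early genes had opposite signs on the arrays, each beyond 0.25 log2 units on both sides, a limit set after the values were seen. They came from a list of 29 tested genes, of which 8 had opposite signs, as 32.4% of all tested genes did. The share of all tested genes beyond that limit was not counted, so nothing here sets these 3 apart from other genes. Axud1 (also named Csrnp1), a nuclear factor induced by Axin1, had a log2 ratio of Sox9-expressing over Sox9-deleted RNA of 0.56 on the genotype array and -0.39 on the treatment array. Dusp6, the phosphatase that limits Erk1/2, gave 0.28 and -0.52. Nr4a1, an orphan nuclear receptor, gave 0.39 and -0.28. With 1 array per comparison the difference between comparisons was not tested. Of the members, Egr1 had the same order of its ratios, 0.70 and then 0.14, without a change of sign.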

How the results depend on the processing

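Over 10 alternative settings with a test, limma or the methods' t-test called 0 of the 10 members after adjustment, and the lowest adjusted p was 0.0811, for Jund. The direction of the mean was kept for 8 members under each setting, and Junb (0.16) and Myc (0.12) turned positive with median centring, a setting that moved the median of all tested genes to 0.21, relative to which they were -0.05 and -0.09. Median centring also moved the median of the members to 0.14, the number of AP-1 target genes lower on both arrays to 8 and their median to -0.20, and the number of other immediate-early genes lower on both arrays to 8 and their median to 0.11. Since it moved the median of all tested genes, values relative to that median are given too. They were -0.07 for the median of the members, 11 AP-1 target genes lower with a median of -0.41, and 14 other immediate-early genes lower with a median of -0.10. The median of the AP-1 target genes was -0.76 on processed signals and -0.62 with the arrays scaled to 1 spread. With 1 array left out, that median ran from -0.55 to -0.51, that of the other immediate-early genes from -0.33 to -0.12, and the number of members at least 2-fold different from 0 to 1, Atf3 without the genotype array. Limma called 2 probes in all, 522 with median centring, 68 on the authors' table and 21 with no filter, and 0 with offset 10, no background correction, scaling or processed signals, and the methods' t-test called 0. At an unadjusted p under 0.05 limma gave 3990 probes and the methods' t-test 1930. The causes of the other shifts were not tested. A batch fit for slide or scan was not run, since both arrays share them. Each log2 ratio already sets 2 RNAs of 1 array against each other, and no replicate block could be added, since each comparison has 1 array. The mean of Fosb ran to -0.90 and that of Fosl1 to -0.96 on processed signals.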

Other observations

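Kinases and serum response factors upstream of the immediate-early genes had small ratios. Of 17 listed genes 16 were tested, 6 of them with negative and 7 with positive log2 ratios throughout (33.8% and 33.9% of all tested genes did so), and the median was 0.04. Creb1, which binds cAMP response elements, gave 0.45 and 0.47 (limma adjusted p = 0.138) and Srf, the serum response factor, 0.39 and 0.32 (limma adjusted p = 0.177). Mapk3, which encodes Erk1, gave -0.29 and -0.11, and Map2k1, the kinase above it, -0.25 and -0.07. Limma called 0 genes after adjustment and 3 of 16 at an unadjusted p under 0.05, all of them higher, where 19.6% of tested genes passed in either direction and 10.5% as higher.

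Heat shock genes, a second group that responds quickly to stress, were tested at 8 of 8. 2 gave negative and 5 positive ratios throughout (median 0.09), where 33.8% and 33.9% of all tested genes did. The inducible chaperones Hspa1a (0.23 and 0.54) and Hspa1b (0.29 and 0.43) were the highest, and these near-identical genes may share probe signal. The chaperones Hsp90aa1 (-0.07 and -0.43) and Hspa8 (-0.02 and -0.25) were the lowest. With median centring the median was 0.52, or 0.31 relative to all tested genes.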
